A study of Mus musculus with 2 samples.

Results

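The genes described here are 43 ligands, receptors, Smads, antagonists and Id targets of the BMP and TGF-beta pathway, chosen by name from the 55536 genes of the GENCODE M21 gene table. They were measured by polyA RNA-seq in whole forebrain of B6NCrl mice on the day of birth, at an age of 0 days, in 2 libraries that form 1 group, with no treatment in the labels. Pup 3 and pup 1 each gave a single forebrain, and 10 ng of RNA was the starting quantity of each library. Sex was not collected and the labels carry no transgene or allele. Both pups share a donor identifier, so the labels do not show beyond the pup numbers how independent they are. With 1 group of 2 samples no test between groups could be made and no p-value is given, and the spread between these samples may be partly technical.

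Ligands of the BMP, TGF-beta, activin and GDF branches bind a pair of type II and a pair of type I serine/threonine kinase receptors at the cell surface. The type I receptors phosphorylate receptor-regulated Smads (Smad1, Smad5 and Smad9 below BMP receptors, Smad2 and Smad3 below TGF-beta and activin receptors), which enter the nucleus with Smad4, while Smad6 and Smad7 inhibit the cascade and secreted antagonists hold ligands away from the receptors. In the developing forebrain, BMPs from the dorsal midline pattern the medial cortex and choroid plexus and promote astrocyte formation, and Id proteins, which block basic helix-loop-helix factors, are widely used readouts of BMP signalling.

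The libraries held 41230598 estimated counts in pup 3 and 40964552 in pup 1, of which 0.167% and 0.158% fell on the 43 genes. One read on a transcript of 1000 bases was worth 0.034 TPM (transcripts scaled for length and to a fixed library total) in pup 3 and 0.0383 TPM in pup 1. Xist was at 8.43 TPM and Ddx3y at 0 TPM in pup 3, against 0.04 TPM and 32.01 TPM in pup 1. This is the pattern of a female in pup 3 and of a male in pup 1, so the libraries come from different animals. In every ratio of pup 3 over pup 1, sex cannot be told apart from other differences between the pups. All 7 forebrain markers were at 1 TPM or more in both pups, led by Neurod6 with 315.67 TPM in pup 3 and 196.84 TPM in pup 1, while 1 of 6 midbrain and hindbrain markers was (Gbx2), and Hoxa2 and Hoxb2 were at 0. The tissue also held RNA of choroid plexus, meninges and vessels: Ttr, a choroid plexus transcript, reached 1027.32 TPM in pup 3 and 1310.53 TPM in pup 1. In such bulk tissue, fewer cells of a type and less RNA per cell cannot be told apart.

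Of the 43 genes, 40 (93.0%) were detected in both pups, where detected means 1 TPM or more. The background was 59.5% of 22028 protein-coding genes and 26.6% of all genes. The members were chosen with earlier results of these data known, so the gap to the background is not a test of the pathway. Tgfb1, Smad9 and Grem1 were below 1 TPM in both pups. Most of the pathway was expressed at a modest level. The median over the 43 genes was 4.79 TPM in pup 3 and 5.54 TPM in pup 1, with a mean of 5.17 ± 0.53 TPM (SD, n = 2), against 3.77 TPM for all protein-coding genes. Among genes with a mean of 1 TPM or more, the median was 5.81 TPM for the 40 pathway genes and 16.3 TPM for protein-coding genes. The 4 Id genes alone held 70.8% of the summed TPM of the 43 genes in pup 3 and 60.8% in pup 1. Across the 43 genes the order of levels was nearly the same in the 2 pups (Spearman rho = 0.97 across genes, which share 2 libraries).

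**Figure D1:**
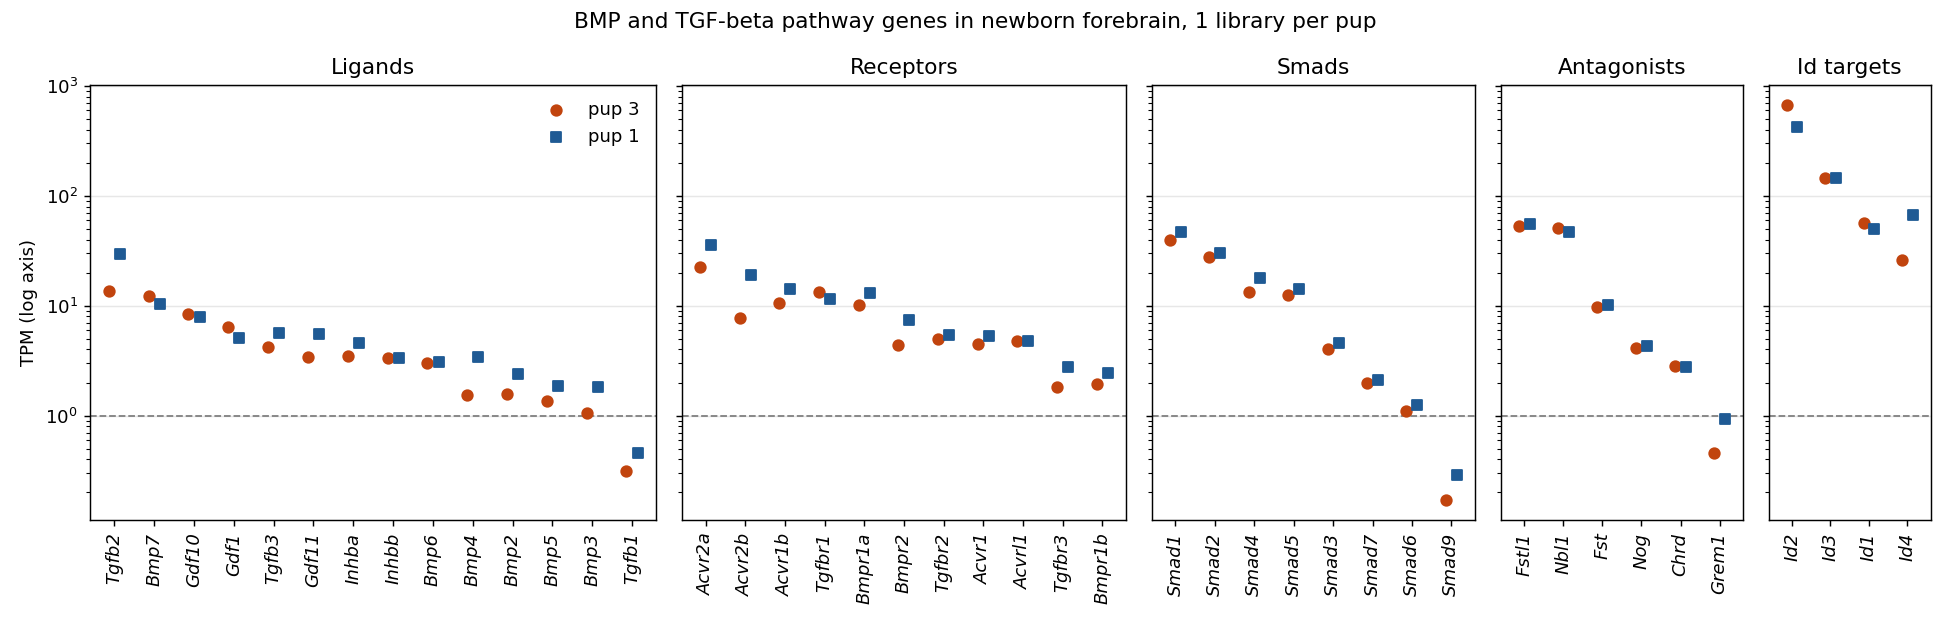
TPM of each of the 43 genes in pup 3 and pup 1 on a logarithmic axis, grouped by role, with the dashed line at 1 TPM. Id2 stands far above the rest, and Tgfb1, Smad9 and Grem1 lie below the line in both pups.

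Ligands had the lowest median of the 5 roles, 3.7 TPM over 14 genes, and 13 of them were detected in both pups. Among the 6 BMP genes, Bmp7, known to be expressed in the dorsal midline, meninges and choroid plexus of the embryo, was at 12.27 TPM in pup 3 against 10.28 TPM in pup 1 (mean 11.3 ± 1.41, SD, n = 2). The other 5 BMP genes lay between 1.06 and 3.10 TPM in pup 3 and between 1.81 and 3.43 TPM in pup 1. Bmp4, a midline ligand of the embryonic telencephalon, had 1.54 TPM from 57 estimated counts in pup 3 and 3.43 TPM from 139 counts in pup 1. Bmp7 was therefore above Bmp4 in both libraries, with a log2 ratio of 2.92 in pup 3 and 1.56 in pup 1 (0.1 TPM was added to each value in gene-to-gene ratios).

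Tgfb2 was the most abundant TGF-beta gene. It had 13.70 TPM in pup 3 and 29.60 TPM in pup 1 (mean 21.6 ± 11.2, SD, n = 2), and Tgfb3 had 4.19 TPM in pup 3 and 5.62 TPM in pup 1. Tgfb1, the form best known from immune cells and platelets, had 0.31 TPM from 19 counts in pup 3 and 0.46 TPM from 25 counts in pup 1. The order Tgfb2, Tgfb3, Tgfb1 held in both pups. The log2 ratio of Tgfb2 to Tgfb1 was 5.07 in pup 3 and 5.73 in pup 1, but its size is loose because Tgfb1 is so low: the mean of 5.40 became 3.94 with 1 TPM added, 4.46 with posterior mean TPM and 4.51 with coding transcripts only. The log2 ratio of Tgfb3 to Tgfb1 was 3.39 in pup 3 and 3.35 in pup 1, and its mean of 3.37 became 2.08 with 1 TPM added and 2.40 with posterior mean TPM.

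The activin beta subunits were close to each other: Inhba had 3.45 TPM in pup 3 against 4.62 TPM in pup 1, and Inhbb had 3.35 TPM in pup 3 and 3.36 TPM in pup 1. Their log2 ratio of 0.04 in pup 3 and 0.45 in pup 1 does not set an order beyond the spread between the pups. Gdf10, a TGF-beta family ligand, had 8.39 TPM in pup 3 and 7.91 TPM in pup 1. Gdf11, known to limit neurogenesis in the olfactory epithelium, had 3.40 TPM in pup 3 and 5.54 TPM in pup 1.

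Gdf1, a Nodal partner in left-right patterning, was listed at 6.39 TPM in pup 3 against 5.13 TPM in pup 1, but its reads cannot be assigned with certainty. The deposited intervals reached from 3.92 to 8.50 TPM in pup 3 and from 2.31 to 7.46 TPM in pup 1. All 1349 exon bases of Gdf1 on chromosome 8 lie, on the same strand, inside exons of Cers1, a ceramide synthase gene, which had 30.04 TPM in pup 3 and 37.4 TPM in pup 1. The 2 genes are known to share a bicistronic transcript. RefSeq lists 2 starts for Gdf1, and the windows around them are shown because they differ in which gene begins there. The first surrounds the start at 70315775 (GRCm38.p6), which is also the first base of Cers1 in GENCODE M21, and the second lies just before the Gdf1 gene body. Each runs from 250 bases before to 50 after the start, 5′ to 3′ on the plus strand, with GGCGCC and GTCT or AGAC in capitals.
Gdf1 at the Cers1 start, chr8:70315525-70315824: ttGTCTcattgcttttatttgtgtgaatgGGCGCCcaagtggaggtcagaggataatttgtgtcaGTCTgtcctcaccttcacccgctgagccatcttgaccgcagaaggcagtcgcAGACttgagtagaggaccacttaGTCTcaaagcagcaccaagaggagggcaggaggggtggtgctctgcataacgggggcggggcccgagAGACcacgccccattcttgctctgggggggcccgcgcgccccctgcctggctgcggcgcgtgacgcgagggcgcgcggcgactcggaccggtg
Gdf1 internal start, chr8:70329515-70329814: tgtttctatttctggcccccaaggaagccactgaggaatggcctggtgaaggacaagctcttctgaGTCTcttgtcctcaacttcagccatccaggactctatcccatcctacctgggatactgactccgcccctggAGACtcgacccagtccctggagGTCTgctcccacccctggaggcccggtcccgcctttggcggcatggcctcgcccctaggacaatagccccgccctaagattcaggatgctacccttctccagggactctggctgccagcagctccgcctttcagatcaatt
The pair Gdf11 to Gdf1 was the only one of 19 gene pairs whose order differed between the pups, with a log2 ratio of -0.89 in pup 3 and 0.11 in pup 1.

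All 11 receptors were detected in both pups, with a median of 5.86 TPM. Acvr2a, a type II receptor for activins and several BMPs, led with 22.51 TPM in pup 3 and 35.39 TPM in pup 1 (mean 29.0 ± 9.11, SD, n = 2). Acvr2b, its close paralog, had 7.69 TPM from 398 counts in pup 3 and 19.15 TPM from 920 counts in pup 1 (mean 13.4 ± 8.1). Bmpr2, the type II receptor dedicated to BMPs, had 4.37 TPM in pup 3 against 7.34 TPM in pup 1, and Tgfbr2, the TGF-beta type II receptor, had 4.97 TPM in pup 3 and 5.37 TPM in pup 1. All 4 type II receptors were lower in pup 3 on the deposited scale, on which 79.6% of all genes were lower. Acvr2a was above Acvr2b in both, by a log2 ratio of 1.54 in pup 3 and 0.88 in pup 1.

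Among type I receptors, Acvr1b (activin type I) had 10.53 TPM in pup 3 and 14.34 TPM in pup 1, Tgfbr1 had 13.34 TPM in pup 3 against 11.49 TPM in pup 1, and Bmpr1a had 10.10 TPM in pup 3 and 13.13 TPM in pup 1. Tgfbr1 was above the other 2 in pup 3 and below them in pup 1, so these 3 do not differ beyond that spread. Bmpr1b, a second BMP type I receptor, had 1.92 TPM in pup 3 and 2.45 TPM in pup 1. Bmpr1a thus stood 5.12-fold above Bmpr1b, and this was among the steadiest of all ratios, at 2.34 in pup 3 and 2.38 in pup 1 on the log2 scale. Acvr1, another BMP type I receptor, had 4.46 TPM in pup 3 against 5.25 TPM in pup 1, and Acvrl1, a receptor known from endothelium, had 4.79 TPM in pup 3 and 4.81 TPM in pup 1. Tgfbr3, or betaglycan, a co-receptor that presents TGF-beta ligands, had 1.82 TPM in pup 3 and 2.77 TPM in pup 1. Endothelial markers were detected for 7 of 7 genes with a summed level of 170 TPM in pup 3 against 175 TPM in pup 1, and their part in the Acvrl1 level was not tested.

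The Smads had a median of 8.79 TPM and 7 of 8 were detected in both pups. Smad1 had 39.53 TPM in pup 3 and 47.17 TPM in pup 1 (mean 43.4 ± 5.4, SD, n = 2). Smad5 had 12.52 TPM in pup 3 and 14.09 TPM in pup 1, while Smad9 had 0.17 TPM from 26 counts in pup 3 and 0.29 TPM from 40 counts in pup 1. The BMP receptor-regulated Smads therefore ran in the order Smad1, Smad5, Smad9 in both pups. The log2 ratio of Smad1 to Smad9 was 7.20 in pup 3 and 6.92 in pup 1 and depends on the pseudocount, since Smad9 is near the floor: its mean was 7.06 with 0.1 TPM added and 5.17 with 1 TPM. In the TGF-beta and activin branch, Smad2 had 27.69 TPM in pup 3 against 30.06 TPM in pup 1, and Smad3 had 4.01 TPM in pup 3 and 4.55 TPM in pup 1. Their log2 ratio was 2.76 in pup 3 and 2.70 in pup 1, so Smad2 was the major form of this branch at the RNA level. Smad4, the common partner, had 13.23 TPM in pup 3 and 17.71 TPM in pup 1, below Smad2 in both. The inhibitory Smads were low, with Smad6 at 1.10 TPM in pup 3 against 1.24 TPM in pup 1 and Smad7 at 1.97 TPM in pup 3 against 2.13 TPM in pup 1.

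Antagonists divided into abundant and sparse genes, and 5 of 6 were detected in both pups. Fstl1, a secreted follistatin-like glycoprotein, had 53.65 TPM in pup 3 and 55.54 TPM in pup 1 (mean 54.6 ± 1.34, SD, n = 2). Nbl1, a DAN family BMP antagonist, had 51.10 TPM in pup 3 and 46.82 TPM in pup 1 (mean 49.0 ± 3.03). Fstl1 was above Nbl1 in both pups at the gene level, but not by protein-coding transcripts alone. Those summed to 40.11 TPM in pup 3 and 41.32 TPM in pup 1 for Fstl1. For Nbl1 they summed to 47.01 TPM in pup 3 and 41.73 TPM in pup 1. Fst, the activin-binding follistatin, had 9.71 TPM in pup 3 and 10.24 TPM in pup 1, above Inhba in both libraries by log2 ratios of 1.47 in pup 3 and 1.13 in pup 1. The mean of that ratio was 1.30 and became 0.59 under annotation release M4. The classical BMP antagonists of the organizer were lower, with Nog at 4.15 TPM in pup 3 against 4.30 TPM in pup 1 and Chrd at 2.85 TPM in pup 3 against 2.77 TPM in pup 1. Nog exceeded Bmp4 in both pups, by log2 ratios of 1.37 in pup 3 and 0.32 in pup 1. The deposited intervals in pup 1 overlapped, from 3.6 to 4.82 TPM for Nog and from 2.94 to 5.62 TPM for Bmp4. Their order in pup 1 is therefore not set, and the mean ratio of 0.85 became 0.51 with posterior mean TPM. Grem1 had 0.46 TPM from 55 counts in pup 3 and 0.94 TPM from 99 counts in pup 1. Meningeal and fibroblast markers, 6 of 7 detected, summed to 185 TPM in pup 3 against 170 TPM in pup 1, and their part in the Fstl1 and Nbl1 levels was not tested.

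The Id genes were the most abundant members as a role, with a summed level of 906 TPM in pup 3 and 688 TPM in pup 1. Id2 had 676.25 TPM from 23229 counts in pup 3 and 425.32 TPM from 12965 counts in pup 1 (mean 551 ± 177, SD, n = 2), which ranked 222 among 22028 protein-coding genes. Id3 had 146.73 TPM in pup 3 and 146.57 TPM in pup 1 (mean 147 ± 0.113), and Id1 had 56.73 TPM in pup 3 and 49.43 TPM in pup 1 (mean 53.1 ± 5.16). Id4 had 25.95 TPM from 2864 counts in pup 3 and 66.79 TPM from 6539 counts in pup 1 (mean 46.4 ± 28.9). Id2 and Id3 led in both pups, while Id1 and Id4 exchanged ranks. The log2 ratio of Id2 to Id4 was 4.70 in pup 3 and 2.67 in pup 1, the widest gap between the pups among the 19 pairs.

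The promoter windows of Id2, Id3 and Id4 are printed because these paralogs differed in how the pups compared: Id2 was higher in pup 3, Id4 lower and Id3 nearly equal. Each window is a reference sequence and not that of either pup, and any link of the windows to those differences was not tested. The windows were taken from RefSeq (GRCm38.p6), from 250 bases before to 50 after the RefSeq start, 5′ to 3′ on the gene's own strand. The RefSeq starts of Id2 and Id3 lie 1048 and 325 bases inside the GENCODE M21 genes, so both windows fall wholly within the gene bodies whose levels are given above. Capitals mark GGCGCC, the GC-rich core bound by Smad1 and Smad5 in known BMP response elements, and GTCT or its reverse complement AGAC, the Smad3 and Smad4 element. The 2 motifs do not overlap each other.
Id2, chr12:25096043-25096342, minus strand: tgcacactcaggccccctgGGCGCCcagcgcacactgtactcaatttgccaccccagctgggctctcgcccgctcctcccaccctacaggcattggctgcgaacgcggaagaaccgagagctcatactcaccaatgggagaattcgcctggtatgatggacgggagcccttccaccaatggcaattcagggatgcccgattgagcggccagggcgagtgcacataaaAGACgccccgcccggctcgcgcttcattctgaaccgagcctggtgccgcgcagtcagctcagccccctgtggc
Id3, chr4:136143572-136143871, plus strand: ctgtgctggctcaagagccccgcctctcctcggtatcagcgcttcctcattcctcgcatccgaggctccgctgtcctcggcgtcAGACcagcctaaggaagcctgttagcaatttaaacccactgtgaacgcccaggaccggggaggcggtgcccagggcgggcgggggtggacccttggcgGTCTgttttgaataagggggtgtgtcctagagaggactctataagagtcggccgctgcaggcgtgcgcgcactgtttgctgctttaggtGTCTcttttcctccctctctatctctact
Id4, chr13:48260866-48261165, plus strand: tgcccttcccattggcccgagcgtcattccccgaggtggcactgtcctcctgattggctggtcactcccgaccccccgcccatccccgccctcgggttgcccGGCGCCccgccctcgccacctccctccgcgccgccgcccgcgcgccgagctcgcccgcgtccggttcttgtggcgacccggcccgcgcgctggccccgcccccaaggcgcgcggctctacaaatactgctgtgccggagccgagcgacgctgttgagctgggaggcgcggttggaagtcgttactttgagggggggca
Id2 held 1 GGCGCC, 231 bases before the start, and 1 GTCT element. Id3 held no GGCGCC and 3 GTCT elements. Id4 held 1 GGCGCC, 148 bases before the start, and no GTCT element. RefSeq windows were found for 31 of the 43 genes, 37 windows in all. GGCGCC occurred on either strand in 14 of 37 (37.8%), against 11.9% of 32851 windows of the genome, and GTCT in 32 of 37 (86.5%), against 88.0%. The pathway windows were richer in GC, with a median of 66.7% against 52.7%. Among windows of at least 60% GC, GGCGCC stood in 13 of 27 pathway windows (48.1%) and in 30.9% of 9690 windows.

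**Figure D2:**
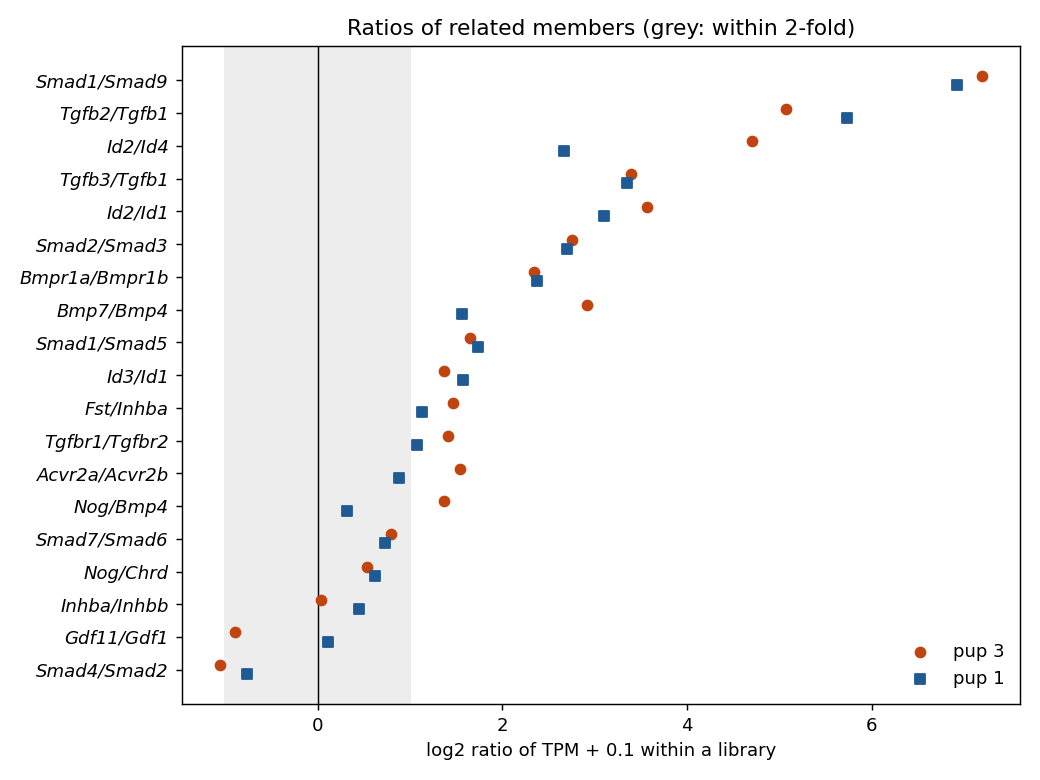
Log2 ratio of the TPM of 19 pairs of related genes within each library, pup 3 and pup 1, with the vertical line at equal levels. Points of both pups fall on the same side of that line for 18 of the 19 pairs, and 12 pairs were at least 2-fold apart in the same direction in both.

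Transcript estimates bear on how much of each level can encode protein. Of the 43 genes, 32 had several annotated transcripts, and 30 of these had the same leading transcript in both pups. The leading transcript was protein coding in both pups for 42 genes, the exception being Tgfb2. In pup 3 its lead was a coding transcript of 5116 bases, with 34.9% of the gene's TPM, and in pup 1 it was a retained-intron transcript of 898 bases, with 42.97%. That transcript held 24.57% in pup 3. Coding transcripts of Tgfb2 summed to 7.83 TPM in pup 3 and 13.38 TPM in pup 1. Coding transcripts held less than 80% of the TPM in at least 1 pup for 6 genes. Their coding share was 57.1% in pup 3 and 45.2% in pup 1 for Tgfb2, 59.0% and 74.4% for Smad5, 60.4% and 73.2% for Chrd, and 64.3% and 85.7% for Bmp4. It was 72.7% in pup 3 and 72.8% in pup 1 for Acvr2b and 74.8% and 74.4% for Fstl1. In Smad5 most of the rest lay in a retained-intron transcript of 1398 bases, at 40.99% in pup 3 and 22.7% in pup 1. Short transcripts weigh heavily in TPM, since each read on them counts for more: the 898-base Tgfb2 transcript rested on 79 counts in pup 3 and 265 in pup 1. Exon bases shared with another gene were found for 14 of the 43 genes. With no strand setting stated, it is not known whether reads on opposite strands were told apart. Bmp5 shared the most with a gene on the opposite strand, 46.7% of its exon bases with Gm26903, which was at 0 TPM in both pups. Acvr2a shared 7.84% of its exon bases with Orc4, which had 62.07 TPM in pup 3 and 57.21 TPM in pup 1. Bmp6 shared 5.74% with Txndc5, which had 50.71 TPM in pup 3 and 58.2 TPM in pup 1, above Bmp6 in both. The counts of genes in this paragraph have no share over all genes beside them, so they do not set the pathway apart.

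**Figure D3:**
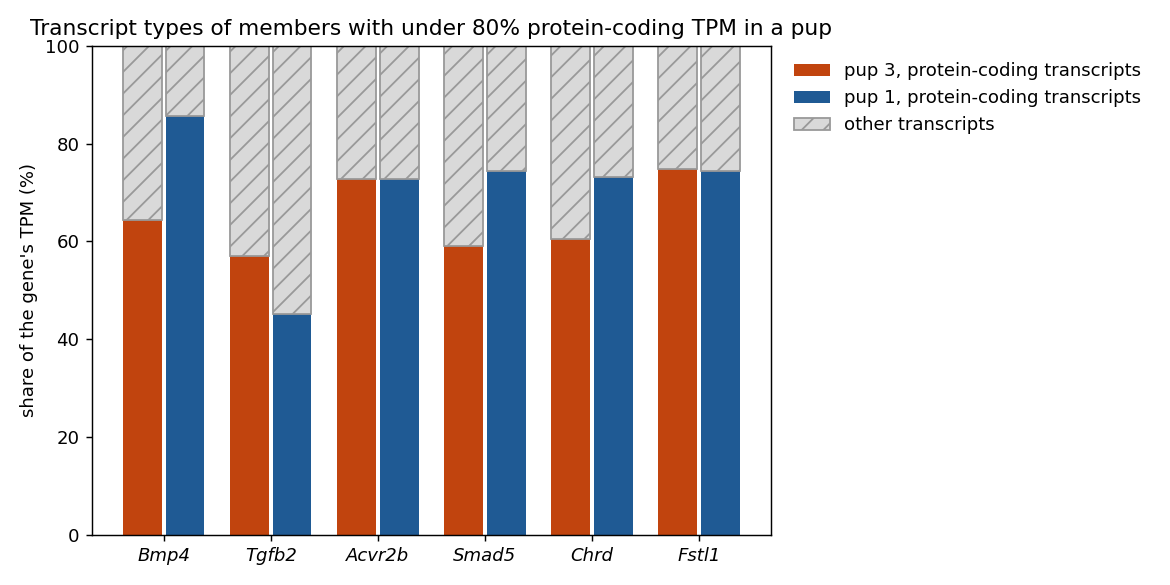
Percent of each gene's TPM by transcript class in pup 3 and pup 1 for the 6 genes whose coding transcripts held less than 80% in at least 1 pup. Tgfb2 has the largest share outside coding transcripts, and the Acvr2b and Fstl1 shares are nearly alike in the pups.

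The pups were set against each other on the log2(TPM + 1) scale, as pup 3 minus pup 1, a scale that understates differences of low genes. The median over 15463 genes with a mean of 1 TPM or more was -0.24, and 79.6% of these genes were lower in pup 3, as were 31 of the 40 pathway genes tested. Ratios below are given after removing that median. The 40 genes then had a median of 0.08. Over all genes the SD of single-gene ratios was 0.39, which cannot judge a median over 40 genes because such a median varies less. Past 1.5-fold in either direction were 4 of 40 (10.0%), near the background of 8.19%. Higher in pup 3 was 1 gene (2.5%, background 3.29%) and lower were 3 (7.5%, background 4.9%). Neither share sets the pathway apart from other genes.

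The single gene past that fold on the higher side was Id2, 1.87-fold higher in pup 3 with a log2 ratio of 0.91. On the lower side, Id4 was 2.13-fold lower in pup 3 (-1.09), Acvr2b 1.97-fold lower (-0.98) and Tgfb2 1.77-fold lower (-0.82). The deposited TPM intervals, which surround the posterior mean and whose level the files do not state, did not overlap for any of these 4 genes. For Id2 they were 652 to 669 TPM in pup 3 and 407 to 421 TPM in pup 1. For Id4 they were 24.4 to 26.3 TPM in pup 3 and 63.5 to 66.7 TPM in pup 1. Those for Acvr2b were 6.38 to 9.31 TPM in pup 3 and 16.6 to 21.7 TPM in pup 1, and those for Tgfb2 were 12.1 to 15.5 TPM in pup 3 and 27.0 to 31.9 TPM in pup 1. Such intervals cover estimation from the reads of 1 library only: they were apart, with pup 3 lower, for 13 of the 40 genes (background 44.5%) and, with pup 3 higher, for 4 (background 5.73%).

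**Figure D4:**
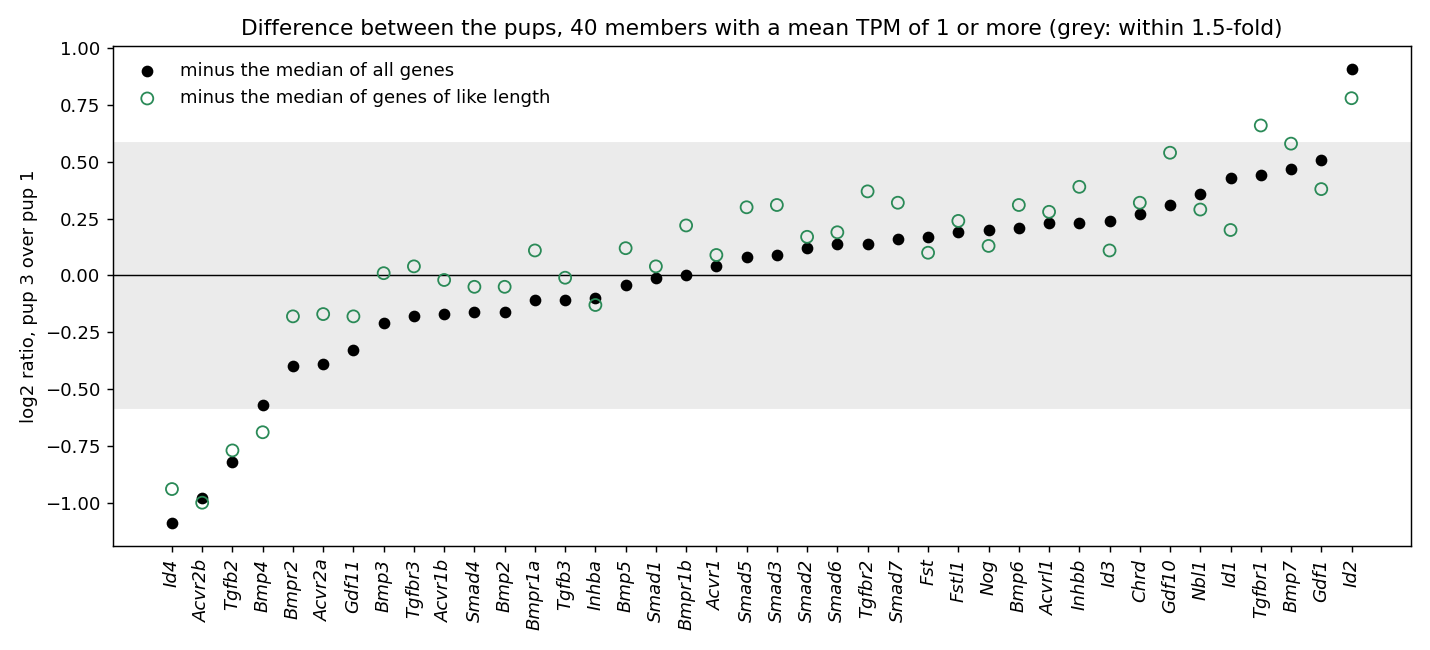
Log2 ratio of pup 3 over pup 1 for the 40 genes with a mean of 1 TPM or more. Filled points are after removing the all-gene median, and open points after removing the median of genes of like length. The grey band covers ratios within 1.5-fold. Among filled points, Id2 lies past the band on the higher side, and Id4, Acvr2b and Tgfb2 past it on the lower side. Among open points, Tgfbr1 (higher) and Bmp4 (lower) lie past it as well.

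Just inside the 1.5-fold line was Bmp4, with a log2 ratio of -0.57. It passed the line in each alternative setting that kept it (-0.81 with TMM scaling), except with 5 TPM added (-0.20). Its deposited intervals overlapped between the pups, from 1.04 to 3.08 TPM in pup 3 and from 2.94 to 5.62 TPM in pup 1. The call for Tgfb2 was lost when only coding transcripts were counted, with a log2 ratio of -0.48. The low call for Acvr2b did not depend on that choice, since its coding transcripts summed to 5.59 TPM in pup 3 and 13.94 TPM in pup 1. By role, the receptors had a median log2 ratio of -0.11 and the ligands of -0.10, and both medians turned positive, 0.09 and 0.01, when genes of like length set the zero. All 5 antagonists tested lay above 0, with a median of 0.20. Among protein-coding genes with a mean of 1 TPM or more, 6599 of 13474 lay above 0. The remaining antagonist, Grem1, was left out because its mean was below 1 TPM, and it lay at -0.17. The direction of the 5 holds only after the all-gene median is removed: on the deposited scale 3 of the 5 were lower in pup 3. The 4 type II receptors had a median of -0.40, with 3 of them below 0, and of -0.17 against genes of like length.

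Gene length moved with the ratio between the libraries. Over all 15463 genes the Spearman rho of the unscaled log2 ratio with effective length was -0.46, and over the 40 pathway genes it was -0.35 (across genes of 2 libraries). In the shortest of 10 length bins the median was 0.07, and in the longest, with a median length of 5505 bases, it was -0.46. After removing the median of genes of like length, the log2 ratio was 0.78 for Id2, -0.94 for Id4, -1.0 for Acvr2b and -0.77 for Tgfb2, all still past 1.5-fold. Tgfbr1 then reached 0.66 and Bmp4 -0.69, while the type II receptors other than Acvr2b lay between -0.18 and 0.37.

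**Figure D5:**
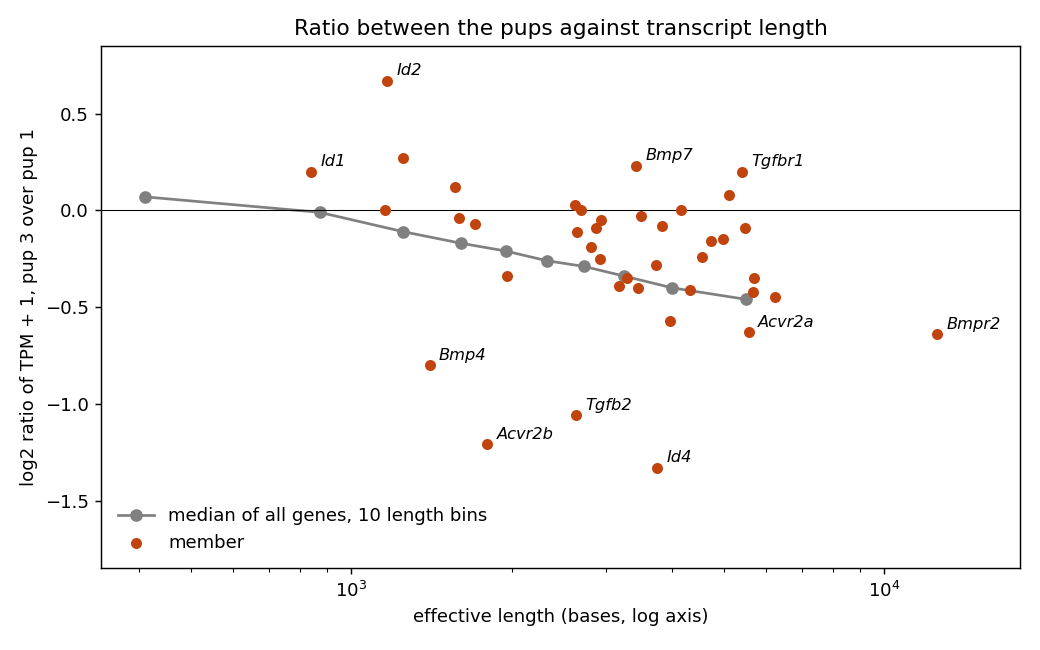
Unscaled log2 ratio of pup 3 over pup 1 against effective length in bases on a logarithmic axis, for the 40 pathway genes and for the medians of 10 bins of all genes. The bin medians fall from 0.07 in the shortest bin to -0.46 in the longest, and Id4, Acvr2b and Tgfb2 lie well below them.

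Markers of cell types also differed between the pups. Radial glia and astrocyte markers, 7 of 7 detected, summed to 2640 TPM in pup 3 and 2580 TPM in pup 1 with a median log2 ratio of -0.19. Fabp7 alone set the direction of that sum: the other 6 summed to 312 TPM in pup 3 and 427 TPM in pup 1. Forebrain markers summed to 537 TPM in pup 3 and 449 TPM in pup 1, with a median log2 ratio of 0.25. Here the higher sum rested on Neurod6, and the other 6 summed to 221 TPM in pup 3 and 252 TPM in pup 1. Neurod6 (0.92) and Emx1 (0.68) were past 1.5-fold on the higher side, while Six3 was at -0.54. Meningeal and fibroblast markers had a median of 0.28, with Dcn (0.92) and Lum (0.85) past 1.5-fold on the higher side, and without Dcn they summed to 117 TPM in pup 3 and 128 TPM in pup 1. Choroid plexus markers, 6 of 7 detected, summed to 1080 TPM in pup 3 and 1390 TPM in pup 1, with a median of -0.18. The midbrain and hindbrain marker Gbx2, which the thalamus also expresses, had 7.25 TPM in pup 3 and 17.49 TPM in pup 1. Microglial markers, 7 of 7 detected, summed to 202 TPM in pup 3 and 197 TPM in pup 1, with a median of 0.23. Without C1qb they summed to 140 TPM in pup 3 and 142 TPM in pup 1. Cx3cr1 was past 1.5-fold on the lower side (-0.71). Pericyte markers, 5 of 6 detected, summed to 133 TPM in pup 3 and 127 TPM in pup 1, with a median of -0.01. Without Vtn they summed to 29.8 TPM in pup 3 and 35.4 TPM in pup 1. The part of these cell types, and of the difference in Xist and Ddx3y, in the values of Id2, Id4, Acvr2b and Tgfb2 was not tested.

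A list of further pathway genes held 70 that matched the annotation, of which 42 were detected in both pups. This was near the background of 59.5% of protein-coding genes. By class, 4 of 19 other ligands were detected, led by Inha, the inhibin alpha subunit, with 15.61 TPM in pup 3 and 20.52 TPM in pup 1, followed by Lefty2 (9.01 TPM in pup 3 against 14.27 TPM in pup 1) and Gdf5 (2.98 and 3.12 TPM). Of 7 other receptors and co-receptors 4 were detected. They were led by Rgmb and Rgma, BMP co-receptors of the repulsive guidance family, at 32.31 and 27.13 TPM in pup 3, against 39.76 and 32.93 TPM in pup 1, and by endoglin (Eng) at 15.38 TPM in pup 3 against 18.25 TPM in pup 1. Extracellular regulators were detected for 14 of 21 genes, with the BMP-binding Twsg1 at 30.26 TPM in pup 3 against 38.09 TPM in pup 1, Fstl5 at 23.62 and 28.16 TPM, and Sostdc1 at 10.0 and 13.82 TPM. Intracellular regulators were detected for 13 of 14 genes. Fkbp1a, which holds type I receptors inactive, stood highest with 570.22 TPM in pup 3 and 600.85 TPM in pup 1, ahead of the phosphatase Ppm1a (49.03 and 57.79 TPM) and the Smad-binding repressor Zeb2 (37.96 and 41.8 TPM). Other targets were detected for 7 of 9 genes, led by Hey1 (22.89 TPM in pup 3 and 24.76 TPM in pup 1), Msx1 (13.15 and 14.19 TPM) and Hes1 (10.45 and 9.28 TPM). Of the 43 listed genes with a mean of 1 TPM or more, 1 passed 1.5-fold, against a background of 8.19% of all such genes. It was Ltbp3, a latent TGF-beta binding protein, with 4.72 TPM in pup 3 and 10.27 TPM in pup 1. Its log2 ratio was -0.74.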

How the data were processed

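PolyA RNA-seq of 2 single forebrains was used, pup 3 (replicate 2) and pup 1 (replicate 1). The authors deposited expected counts, TPM and FPKM per gene, and the percent of each gene's TPM per transcript, for mm10 with GENCODE M21 and M4, per the README and file headers. Aligner, quantifier and strand setting: not given in the sources used here, although the tables have RSEM's column names. Values are from M21 unless M4 is named. TPM is relative within a library, so a large change in one gene moves all others. Symbols, biotypes and coordinates came from the M21 annotation, in which all 55536 gene identifiers matched.

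Members, gene lists and pairs were chosen with earlier results of these data known. Named were all 43 members, the 3 highest genes per class of the further list and any past 1.5-fold, the highest or zero-valued markers, further markers chosen after their values were seen, and genes overlapping a member. Ratios used a pseudocount of 1 TPM, pair ratios 0.1 TPM. Size factors came from edgeR 4.0.16 (TMM) and DESeq2 1.42.0 on rounded counts, as scaling alternatives only; no test was run, since 1 group allows none. Tested on simulated counts for 15450 genes, the 1.5-fold rule found 97.0% of genes raised 2-fold and 86.0% of genes lowered 2-fold. It also passed 0.89% of unchanged genes. The simulation drew both pups from shared mean levels with counting noise alone, without differences between animals or a trend with length. Its 0.89% is therefore not the share to expect in these libraries, where 8.19% of genes passed. Python 3.11.15 with pandas 2.3.3 was used.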

Additional observations from a re-analysis of the deposited data

How the results depend on the processing

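The count of 40 genes detected in both pups became 20 at a minimum of 5 TPM and lay between 32 and 43 in the other settings. It was 40 with either pup left out. The median level of 5.17 TPM was 3.48 on the FPKM scale, and 4.79 to 5.54 TPM with a pup left out. The median log2 ratio of 0.08 was -0.15 without removal of the all-gene median and -0.16 without the filter on low values, where genes at 0 in both pups set the all-gene median to 0. In the other settings it lay between 0.01 and 0.12. The 4 genes past 1.5-fold became 7 in each of those settings (background 15.5% and 5.33%), with Bmp4, Bmpr2 and Acvr2a added, and 1 at 2-fold (Id4, background 1.78%). In the other settings 4 to 6 genes passed, with the original 4 among them except when only coding transcripts, an alternative chosen after seeing the data, were counted. The background in those settings ran from 3.03% with 5 TPM added (4 genes) to 13.3% with 0.1 TPM added (5 genes). It was 6.68% when genes of like length set the zero (6 genes). How near the count lies to the background therefore depends on the setting. Leaving out a pup gave 12 to 15 pairs at least 2-fold apart and 42 to 43 genes led by a coding transcript. The further pathway genes detected numbered 38 to 45. Of the single-gene ratios under the alternatives, 406 kept their side of 1.5-fold, 14 passed it newly and 1 lost it. In 37 of 421 the sign changed, for 16 genes whose ratio was at most 0.21 in size, among them 11 without removal of the all-gene median; the sign held in all settings for the 4 genes past 1.5-fold. Of single pair ratios, 38 moved by more than the spread between the pups and 56 did not. No paired analysis was possible because there is 1 group. Depth limits Tgfb1, Smad9, Grem1 and Smad6, each under 100 counts per pup, and Bmp4 in pup 3, with 57 counts.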

Other observations

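Annotation release M4 gave other levels for a few pathway genes. For 42 of the 43 genes with a value in both releases, the median ratio of the M4 to the M21 mean TPM was 1.05. It passed 1.5-fold in either direction for 3 genes, and the others lay between 0.833 and 1.23. Gdf10 had 18.2 TPM in pup 3 and 17.23 TPM in pup 1 under M4, a ratio of 2.17, with an effective length of 2408 bases against 5111 in M21. Id4 had 43 TPM in pup 3 and 113.54 TPM in pup 1 under M4, a ratio of 1.69. Its effective length was 1561 bases in M4 and 3750 in M21, while its estimated counts under M4 were 1889 in pup 3 and 4408 in pup 1. Fst had 6.75 TPM in pup 3 and 6.29 TPM in pup 1 under M4, a ratio of 0.654, with an effective length of 2238 bases against 1707. Id4 was lower in pup 3 under both releases. These 3 genes were chosen after their values were seen, and levels of Id4 relative to Id1 therefore depend on the gene model: Id1 had 59.31 TPM in pup 3 and 51.88 TPM in pup 1 under M4, against 43 and 113.54 TPM for Id4.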
